A study of Arabidopsis thaliana with 6 samples.

Results

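A group of 7 cell wall genes of Arabidopsis thaliana is described here: the expansins EXPA4 (AT2G39700), EXPA8 (AT2G40610), EXPA15 (AT2G03090), EXPA18 (AT1G62980) and EXPB1 (AT2G20750) and the expansin-like genes EXLA2 (AT4G38400) and EXLB1 (AT4G17030). Each was taken from the annotation of the array's probe sets, and each had a probe set of its own, so that 7 of 13355 genes with a named probe set are described in full. The list had been drawn up when earlier results of this comparison were known, so the 11 other expansins with a probe set of their own are given as well. Roots were taken from seedlings that were 5 days old when moved to medium with 5 mM boric acid, against seedlings moved to the same medium without it, and were sampled after 12 h. Each group had 3 arrays that the labels call biological replicates, numbered as in the labels (boric acid 1 to 3, control 1 to 3). The plants carried no transgene or mutation that the labels name, their accession is not given in the sources used here, and the tissue is labelled only as root. A lower value can stand for less RNA per cell or for fewer cells of a type, which cannot be told apart.

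Expansins are small secreted proteins that loosen plant cell walls at acidic pH, without cutting the wall polymers, and so allow turgid cells to grow. The α-expansins (EXPA) act on the cellulose and xyloglucan network of dicot walls, and the β-expansins (EXPB) are best known from grasses, where some act as pollen allergens. Expansin-like A and B proteins (EXLA, EXLB) share the fold but no wall-loosening activity has been established for them. In roots, EXPA7 and EXPA18 are known from the hair-forming cells of the epidermis, where they are used as markers of hair initiation.

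Among the 7 genes, EXPB1 fell in boric acid, to a level 2.37-fold below control. EXLB1 was 1.97-fold higher and EXPA18 1.59-fold higher, and each of these passed the threshold when the replicate number was taken into account as a block. EXPA4, EXLA2, EXPA8 and EXPA15 did not pass with or without the block. By limma's test, with Benjamini-Hochberg adjustment over all probe sets and a threshold of 0.05, 0 of 7 were called higher and 1 lower, where 3.25% of all probe sets were called in either direction, 1.92% higher and 1.34% lower. With the block the counts were 2 higher and 1 lower, where 9.15% of all probe sets were called, 5.3% higher and 3.85% lower. Since the genes had been picked with this contrast known, nothing is read from these shares. Levels below are the deposited RMA values (log2), a change is the boric acid mean minus the control mean, and ± is the standard deviation (SD) of 3 arrays for a level and the standard error (SE) of the fit for a change.

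The arrays were checked before the values were compared. The lowest value on an array lay between -0.38 and -0.30 and the median between 1.45 and 1.49, and the background step or baseline behind such low RMA values is not stated in the sources used here. A level therefore has no absolute meaning, and folds rest on the values being log2. The added controls cre and bioB differed by 5.43 to 6.02, near what their known amounts give on a log2 scale. Probe sets that match no plant transcript (TrpnX) reached at most 0.217 on any array. The background of other probe sets can be higher and was not estimated. The root gene PYK10, a β-glucosidase of endoplasmic reticulum bodies, lay at 9.96 to 10.08 in boric acid and 10.12 to 10.44 in control roots, and the other 7 root markers had no named probe set. Of 11 green tissue markers 3 were measured, at 1.18 to 5.54 in boric acid and 1.71 to 4.96 in control roots, and none passed the threshold. The largest change among them was that of LHCB4.2, a light-harvesting protein, at -0.99 ± 0.33 (limma adjusted p = 0.187). The value of the actin 3′ probe set minus that of the 5′ probe set, a gap that widens as RNA is degraded, was 2.96 on boric acid 1 and 2.60 on control 1, and 1.23 to 1.71 on the other 4 arrays. The same gap for GAPDH was smaller, at 0.24 on boric acid 1, 0.49 on control 1 and -0.18 to -0.03 on the other 4.

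EXPA18, the root-hair expansin of the group, was at 4.19, 4.60 and 3.87 on boric acid 1, 2 and 3, and at 3.72, 3.68 and 3.26 on control 1, 2 and 3. The lowest boric acid value lay above the highest control value, as for 10.9% of all probe sets. The groups did not overlap in either direction for 21.4%. The means were 4.22 ± 0.37 in boric acid and 3.55 ± 0.25 in control roots (SD, n = 3 each), and the change was 0.67 ± 0.22 with a 95% interval of 0.14 to 1.20. Its adjusted p was 0.190 in limma and 0.0353 with the replicate block, so EXPA18 passed the threshold only in the blocked fit. The differences between arrays of the same number were 0.47, 0.92 and 0.61 for numbers 1, 2 and 3, all upward.

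EXPA7, the other root-hair expansin and no member of the group, averaged 3.76 ± 0.32 in boric acid and 3.74 ± 0.78 in control roots (SD, n = 3 each). EXPA7 was at 3.47, 3.71 and 4.101 on the boric acid arrays and at 2.89, 4.41 and 3.91 in control roots, where both the lowest and the highest of the 6 values belonged to control arrays. Its change was 0.02 ± 0.39 (limma adjusted p = 0.990, and 0.978 with the block), with an interval of -0.92 to 0.96. This interval holds the change of EXPA18, and the same-number differences of EXPA7 went both ways, at 0.58, -0.70 and 0.19. Within arrays, EXPA18 minus EXPA7 averaged 0.46 ± 0.60 in boric acid and -0.19 ± 0.88 in control roots (SD, n = 3 each). The same-number differences of this measure were -0.11, 1.62 and 0.42. An exact permutation test (two-sided, p = 0.3) did not use the array numbers and cannot go below 0.1 with groups of 3. Whether these root-hair genes differ in response could therefore not be settled.

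**Figure D1:**
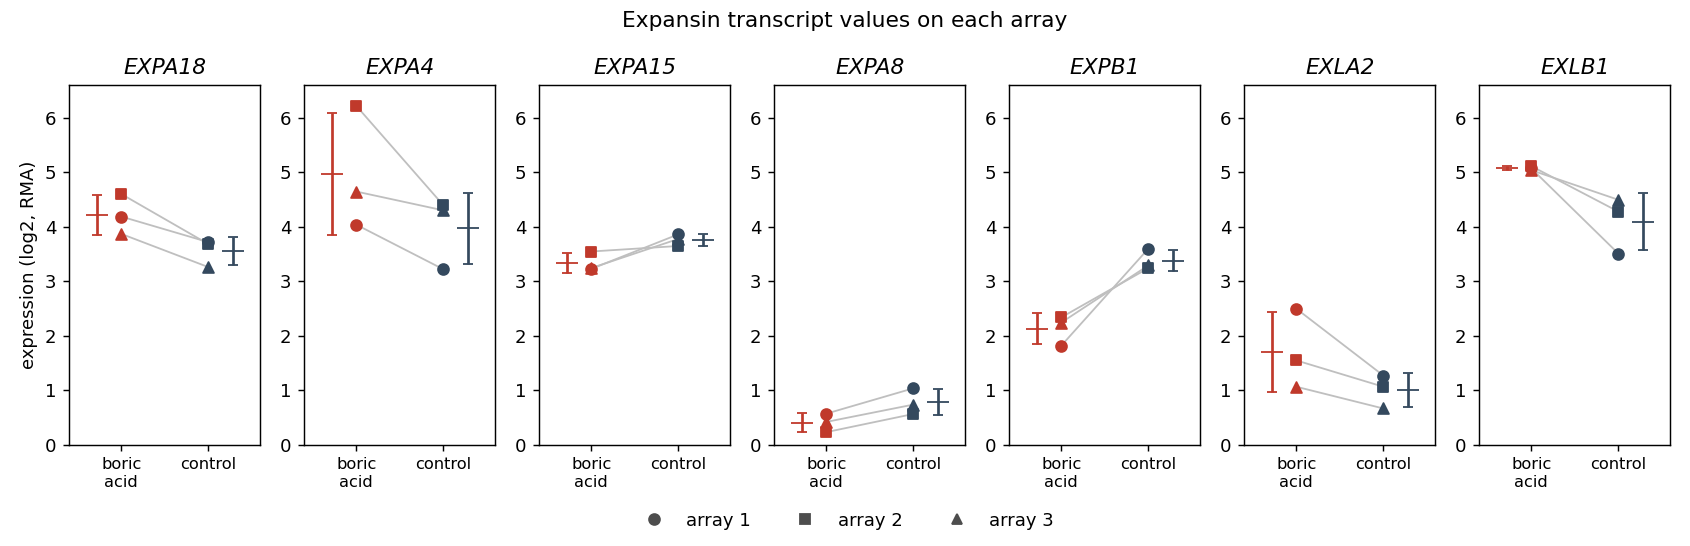
Expression (log2, RMA) of the 7 genes on each array, boric acid left of control, with arrays of the same number joined by grey lines and group means ± SD (n = 3) at the sides. EXPB1 lies lower on all boric acid arrays (1.82 to 2.34) than on all control arrays (3.24 to 3.60), and the 3 boric acid values of EXLB1 lie within 5.04 to 5.11.

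The α-expansins outside the root-hair pair did not share a direction. EXPA4 was at 4.04, 6.22 and 4.64 on boric acid 1, 2 and 3, and at 3.22, 4.39 and 4.30 on control 1, 2 and 3. The groups overlapped, and the boric acid 2 array stood well above the other 5. The change of EXPA4 was 0.99 ± 0.60, an interval of -0.44 to 2.43, and its adjusted p was 0.503 in limma and 0.0892 with the block. The same-number differences of EXPA4 were 0.82, 1.82 and 0.34. Without boric acid 2 its change was 0.37, so that a single array carried much of the size.

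EXPA15 pointed the other way. Its values were 3.23, 3.54 and 3.24 in boric acid, against 3.86, 3.65 and 3.77 in control roots. All 3 boric acid values lay below all control values, as for 10.5% of all probe sets. The means were 3.34 ± 0.18 in boric acid and 3.76 ± 0.11 in control roots (SD, n = 3 each). Its change of -0.42 ± 0.13 had an interval of -0.73 to -0.11, and its adjusted p was 0.159 in limma and 0.139 with the block. The gap was narrow on the arrays numbered 2, with a difference of -0.10, against -0.63 and -0.53 on the arrays numbered 1 and 3.

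EXPA8 was the dimmest member. Its values were 0.57, 0.23 and 0.42 in boric acid, against 1.03, 0.56 and 0.74 in control roots. The boric acid 2 value was close to the 0.217 that the TrpnX probe sets reached. The groups overlapped narrowly, the boric acid 1 value lying just above that of control 2. The change was -0.37 ± 0.16 (limma adjusted p = 0.315 without and 0.0968 with the block). Both means of EXPA8 were under 1, so little can be said about it. A log2 difference at values this low need not give the size of any change in RNA. The same-number differences of EXPA8 were nevertheless alike, at -0.46, -0.33 and -0.32.

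EXPB1, the β-expansin of the group, was the member with the clearest separation. It was at 1.82, 2.34 and 2.24 on boric acid 1, 2 and 3, and at 3.60, 3.24 and 3.29 on control 1, 2 and 3. The groups were parted by a gap wider than the range within either of them. The means were 2.13 ± 0.28 in boric acid and 3.37 ± 0.19 in control roots (SD, n = 3 each). EXPB1 fell by 1.24 ± 0.18 on the log2 scale, with an interval of -1.67 to -0.82 (limma adjusted p = 0.0208, and 0.0186 with the block). Its change was the 213th lowest of 22746 probe sets. The same-number differences were -1.78, -0.90 and -1.05, the largest on the arrays numbered 1. EXPB1 kept its call without boric acid 1 or control 1 and lost it without any of the other 4 arrays, at changes of -1.35 to -1.09 over the 6 fits and adjusted p up to 0.0795. Without both arrays numbered 1 it fell by 0.98 (adjusted p = 0.0142). Fits with 5 arrays called 70 to 277 probe sets where an array numbered 2 or 3 was left out, against 740 with all 6. Without boric acid 1 the number was also lower, at 349, and without control 1 it was higher, at 1129.

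The expansin-like genes both had higher means in boric acid, and they differed in how even their values were. EXLB1 had 5.07, 5.11 and 5.04 in boric acid, against 3.51, 4.28 and 4.49 in control roots. Its boric acid values lay close together, at 5.07 ± 0.04 (SD, n = 3), while the control values spread over 4.09 ± 0.52 with control 1 lowest. The change was 0.98 ± 0.25, an interval of 0.37 to 1.58, with an adjusted p of 0.106 in limma and 0.0436 with the block. Between these 2 fits, EXLB1 thus passed the threshold in the blocked one. Control 1 was also an array with a high actin 3′ to 5′ difference. Without control 1 the change of EXLB1 was 0.69 and passed (limma adjusted p = 0.0354), and without both arrays numbered 1 it was likewise 0.69 (adjusted p = 0.0435). With the actin difference as a covariate it was 1.02 (adjusted p = 0.0350). EXLB1 did not pass in the other 5 fits without a single array, with adjusted p up to 0.304.

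EXLA2, whose loss is known to make Arabidopsis more resistant to the grey mould Botrytis, had 2.49, 1.55 and 1.06 in boric acid, against 1.27, 1.06 and 0.66 in control roots. The groups overlapped, and boric acid 3 and control 2 had the same value. The means were 1.70 ± 0.73 in boric acid and 0.999 ± 0.31 in control roots (SD, n = 3 each). With a control level this low, a log2 difference need not give the size of a change in RNA. The change of EXLA2 was 0.70 ± 0.37, an interval of -0.18 to 1.59, with an adjusted p of 0.428 in limma and 0.0791 with the block. Its same-number differences were 1.23, 0.48 and 0.40. Without boric acid 1 the change of EXLA2 was 0.31, the lowest of its 6 fits without an array.

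**Figure D2:**
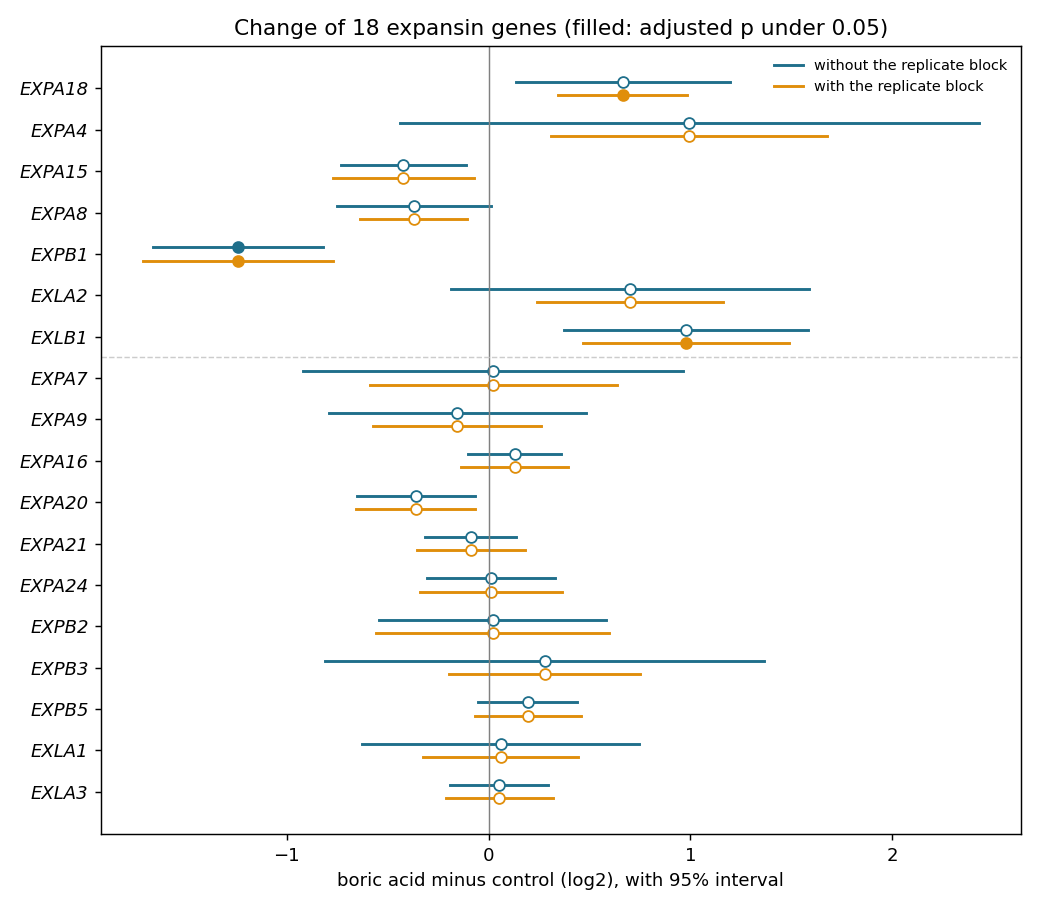
Change of 18 expansin genes (log2, boric acid minus control), with 95% intervals from limma without (blue) and with (orange) the replicate block, the 7 genes described here above the dashed line. EXPB1 is filled in both fits and EXPA18 and EXLB1 in the blocked fit, and among the 7 genes the intervals of EXPA4 and EXLA2 narrow most with the block.

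The 7 genes had the same direction in all 3 same-number differences, 4 upward and 3 downward, where 43.6% of all probe sets kept 1 direction in all 3. The members were picked with their changes known, so this is a description of them. The 11 other expansins had changes between -0.36 and 0.28 with a median of 0.02. For the 7 genes the changes ran from -1.24 to 0.99 with a median of 0.67, and the median over all probe sets tested was -0.01. A wider range follows from picking the 7 with their changes known, so nothing is read from this difference. None of the 11 passed in limma with or without the block, and 1 had an unadjusted p under 0.05, where 16.7% of all probe sets did.

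Of these 11, EXPA16, EXPA21, EXPA24, EXPB2, EXPB5 and EXLA3 had means under 1 in both groups, so little can be said about them. The 5 with higher levels were EXPA7, EXPA9, EXPA20, EXPB3 and EXLA1. EXPA20 had the lowest change of the 11, with 2.01 ± 0.13 in boric acid against 2.38 ± 0.13 in control roots (SD, n = 3 each), a difference of -0.36 ± 0.12 (limma adjusted p = 0.197, and 0.133 with the block). Its boric acid values all lay below its control values, as for 10.5% of all probe sets. EXPA9 averaged 4.41 ± 0.50 in boric acid and 4.56 ± 0.23 in control roots. EXLA1, of the same subfamily as EXLA2, averaged 3.21 ± 0.48 in boric acid and 3.15 ± 0.36 in control roots. EXPB3, another β-expansin, averaged 2.82 ± 0.78 in boric acid and 2.54 ± 0.59 in control roots, a change of 0.28 ± 0.45 (limma adjusted p = 0.844). EXPB3 was 3.61 on boric acid 2 and 2.05 on boric acid 1, a spread wider than the change. A further 2 probe sets each match a pair of α-expansin genes, EXPA22 with EXPA26 and EXPA23 with EXPA25, and lay at or below 0.502 on every array. The other 14 of 36 expansin genes listed, EXPA1 and EXPA5 among them, were not analysed here because no probe set was named for them.

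Root hair growth and wall acidification, which stand close to expansin action, could hardly be followed. Of 29 listed genes of root hair fate and growth, 2 had a named probe set. CSLD2, a cellulose synthase-like protein of hair tip growth, averaged 4.88 ± 0.14 in boric acid and 4.82 ± 0.16 in control roots (SD, n = 3 each). SCN1, which confines hair outgrowth to a single site, averaged 5.58 ± 0.09 in boric acid and 5.76 ± 0.15 in control roots. Neither passed, with changes of 0.05 ± 0.13 and -0.18 ± 0.12 in that order (limma adjusted p = 0.903 and 0.543). None of the 11 plasma membrane proton pumps, which acidify the wall, had a named probe set.

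The 6 values of each gene were split into a share that goes with treatment, a share that goes with the replicate number and a remainder. Treatment took 91.1% of the sum of squares of EXPB1, 75.3% of EXPA15, 72.7% of EXLB1, 62.5% of EXPA18 and 54.8% of EXPA8. In EXPA4 treatment took 30.5% and the replicate number 57.8%, and in EXLA2 treatment took 37.2% and the number 52.4%. The number has 2 degrees of freedom and treatment 1, so the number's share is larger where neither matters. Medians over all probe sets were 21.1% for treatment, 39.9% for the number and 21.5% for the remainder. The number's median thus lay above that of the remainder, which also has 2 degrees of freedom. Per degree of freedom treatment was the larger in all 7 genes, narrowly in EXPA4, at 30.5% for treatment and 28.9% for the number. The share of all probe sets for which this holds is not given here. The genes were picked with their changes known, so nothing is read from their treatment shares. EXPA8 divided almost wholly between treatment and number, with a remainder of 1.74%, while the number took only 0.276% of EXPB1 and 2.18% of EXPA15.

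**Figure D3:**
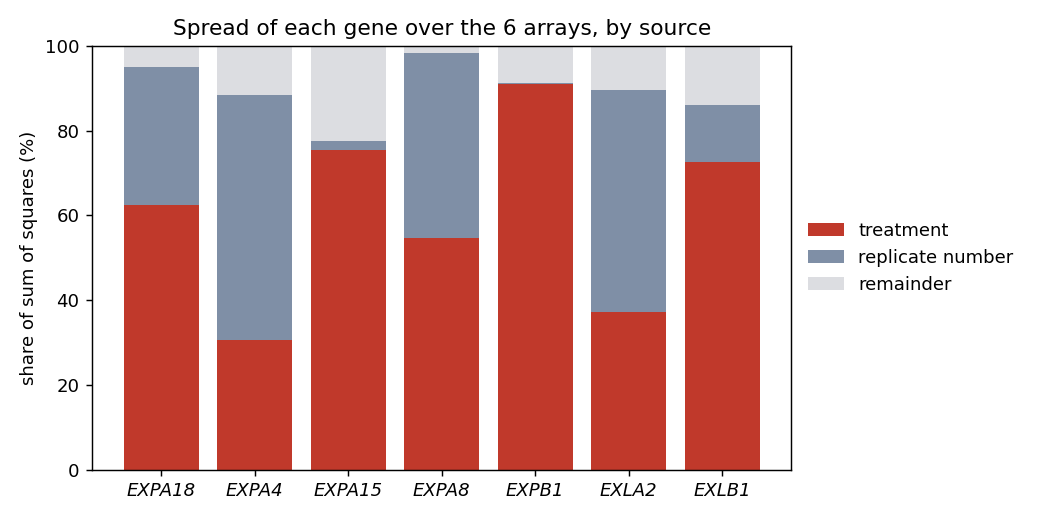
Share of the sum of squares (%) of each gene over the 6 arrays that goes with treatment, with the replicate number and with neither. Treatment has the larger share in EXPB1, EXPA15, EXLB1, EXPA18 and EXPA8. In EXPA4 and EXLA2 the number does, with 2 degrees of freedom against 1 for treatment. The genes were picked with their changes known, so nothing is read from these shares.

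In EXPA4, EXLA2 and EXPA8 the arrays numbered 1, those with the high actin 3′ to 5′ difference, stood at the same end of both groups. EXPA4 was lowest there in boric acid and in control roots, and EXLA2 and EXPA8 were highest there in both. This was not particular to these genes. Of the other expansins with higher levels, EXPA7 and EXPB3 were lowest there in both groups and EXLA1 highest, but not EXPA9 or EXPA20. With the actin difference as a covariate the changes were 1.11 for EXPA4, 0.60 for EXLA2 and -0.40 for EXPA8, and none passed (limma adjusted p = 0.225, 0.0686 and 0.141). Without the arrays numbered 1 in both groups they were 1.08, 0.44 and -0.33. What the replicate numbers stand for is not stated, and the part of RNA quality in these values was not tested beyond these fits.

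**Figure D4:**
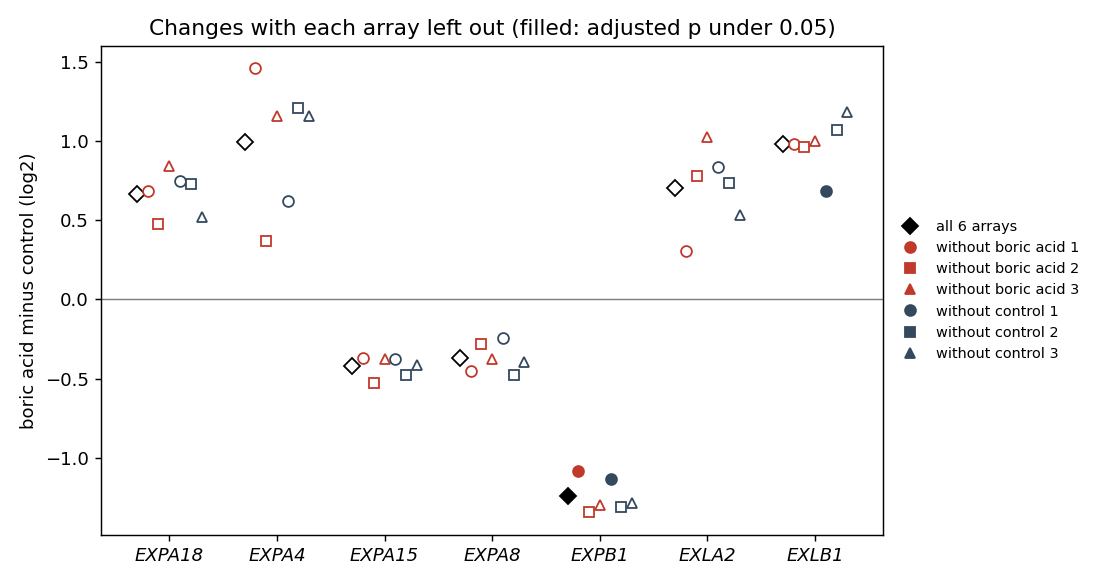
Change of each gene (log2, boric acid minus control) with all 6 arrays and with each array left out in turn, filled where the limma adjusted p is under 0.05. No gene changes sign; EXPA4 moves most, between 0.37 and 1.46, and EXLB1 lies between 0.69 and 1.18.

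For each of the 7 genes, the 2 genes with the most similar profile over the 6 arrays were taken, by Pearson's r among 5271 single-gene probe sets with a mean of at least 2. The r of these 14 genes lay between 0.950 and 0.997, over 6 points that share the treatment groups and arrays, and is given as a description. Closest to EXPB1 were AT1G78260 and AT3G54080, with r of 0.993 and 0.991. AT1G78260 fell by 0.64 ± 0.12 (limma adjusted p = 0.0463), and AT3G54080 differed by -1.01 ± 0.20 (0.0545 in limma and 0.0460 under the block). Closest to EXLB1 were AT1G33700 and AT1G65010, with r of 0.997 each. AT1G33700 had a change of 0.99 ± 0.22 and passed in the blocked fit (adjusted p = 0.0739 in limma and 0.0329 under the block). AT1G65010 had one of 0.85 ± 0.25 and passed in neither. Like EXLB1, both had a small SD in boric acid, 0.03 and 0.01, and a larger one in control roots, 0.44 and 0.53. This likeness comes with the search, which picked them for their profile over these arrays. Closest to EXPA18 were AT5G43150 and AT4G28440, with r of 0.991 and 0.985 and smaller changes of 0.47 ± 0.18 and 0.16 ± 0.10. The 8 genes closest to EXPA4, EXPA8, EXPA15 and EXLA2 passed in neither fit, with changes from -1.55 for AT4G30670, closest to EXPA15 with AT1G29980, to 0.33 for AT5G38890, closest to EXLA2 with AT1G73350. The others were AT4G33380 and AT5G55670 for EXPA4 and AT3G56680 and AT3G44140 for EXPA8.

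The protein-coding genes next to EXPB1 on its chromosome, in the gene order of the TAIR10.1 assembly, were both measured. AT2G20740 had changes of 0.05 ± 0.18 and 0.27 ± 0.15 on its pair of probe sets, and AT2G20760 had one of 0.30 ± 0.33, none past the threshold (limma adjusted p = 0.941, 0.440 and 0.743). Beside EXPA8, AT2G40600 had a change of -0.38 ± 0.20 and AT2G40620 one of 0.02 ± 0.38 (limma adjusted p = 0.417 and 0.992). The 3 measured neighbours of EXPA4, EXPA15 and EXLB1 differed by -0.20 to 0.04 and did not pass (limma adjusted p = 0.776 to 0.919). No protein-coding neighbour of EXPA18 or EXLA2 had a named probe set.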

How the data were processed

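The members and the gene lists were chosen with earlier results of these data known. The authors deposited a log2 value for each probe set of their Affymetrix ATH1 arrays, made with RMA per the submitters' processing notes, whose version and parameters are not given in the sources used here. The table holds 22810 probe sets, of which 64 are the array's controls and 22746 were tested. Of these 13513 had a single gene in the platform's probe annotation, 503 several and 8730 none. Symbols come from RefSeq genes of TAIR10.1. Boric acid was compared with control over all probe sets with limma 3.58.1 in R 4.3.3 (lmFit, eBayes, two-sided, Benjamini-Hochberg), which was tested on simulated data first. Arrays give no read depth, and their number, 3 in each group, limits the precision. Deviations from the group means correlated at 0.608, 0.231 and 0.618 between arrays of the same number, all over 0.1. Between others they correlated at -0.619 to 0.284. Control 2 correlated more with boric acid 3 (0.284) than with boric acid 2 (0.231), so the numbers 2 are not clearly paired. The numbers were nevertheless taken to pair the arrays, and the blocked values are given where they change a call. The calls of EXPA18 and EXLB1 in the blocked fit rest on this pairing. This pairing comes from the values, not from the labels. Genes named are the 7 members, every other expansin with a probe set of its own, root hair and proton pump genes that passed or, where none did, the 1 with the largest change, and the 2 most similar genes for each member; CSLD2 and the neighbouring genes were added after their values were seen. Alternatives were the block, quantile normalization, median centring, a minimum mean of 2, an intensity trend, an actin covariate and left-out arrays.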

Additional observations from a re-analysis of the deposited data

How the results depend on the processing

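None of the 7 genes changed sign under any alternative, and 80 of 89 alternative values kept their side of the threshold of limma's adjusted p. Only EXPB1 passed in the main fit, so for the other genes keeping their side meant not passing. The count is therefore no measure of how firm a call is. With the replicate block EXPA18 (0.67) and EXLB1 (0.98) passed. EXLB1 also passed with the actin covariate (1.02), without the arrays numbered 1 (0.69) and without control 1 (0.69). It did not pass in the 5 other fits without a single array (0.69 to 1.18 over the 6), nor with quantile normalization, median centring, a minimum mean or an intensity trend. EXPA18 lay between 0.47 and 0.84 without single arrays. EXPB1 lost its call without boric acid 2 or 3 or control 2 or 3, between -1.35 and -1.09. The block changed no call of another expansin or root hair gene. Probe sets past the threshold numbered 740, with 2081 under the replicate block, 1881 under the actin covariate, 1604 without the arrays numbered 1, and 70 to 1129 without single arrays. Expansins past it numbered 1 of 18, with 3 under the replicate block, 2 under the actin covariate and 2 without the arrays numbered 1, and 0 to 2 without single arrays. A minimum mean of 2 left out EXPA8 and EXLA2, and the proton pumps gave no value. Among genes that did not pass, EXPA7 turned to -0.024 with quantile normalization and -0.26 without the arrays numbered 1, and lay between -0.40 and 0.36 without single arrays. Without the arrays numbered 1, EXPA9 was 0.071, EXPA24 -0.15, EXPB2 -0.24 and CSLD2 -0.032. Without single arrays EXPA9 lay between -0.40 and 0.10, EXPA24 between -0.090 and 0.077, EXPB2 between -0.19 and 0.24, and CSLD2 between -0.036 and 0.12. EXPA24 was -0.0055 with median centring. EXPB3 lay between -0.12 and 0.66 and EXLA1 between -0.16 and 0.32 without single arrays, and EXLA1 was -0.00073 with the actin covariate. The cause was not tested.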
